A study of Mus musculus with 4 samples.

Results

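The cells described here are the lymphocytes of adult mouse liver that carried RNA of cell division genes. They numbered 163, of 11981 adult barcodes kept for analysis and 27874 kept in the 4 libraries of the study. The IHG library held 66 of them and the Ctrl library 97. A barcode, the droplet tag that stands for a cell, was kept with at least 300 detected genes and at most 25% of its unique molecular identifiers (UMIs, counts of captured RNA molecules) from mitochondrial genes. It was called a cycling lymphocyte when at least 3 of 8 division genes (Mki67, Top2a, Birc5, Cdk1, Ube2c, Ccnb2, Cdca8 and Pclaf) had a UMI, and at least 1 of 5 lymphocyte genes did: Cd3e, Cd3d and Cd3g of the T cell receptor complex, Cd79a of the B cell receptor complex, or Nkg7 of cytotoxic granules. The cells were thus chosen by the measured counts of these division and lymphocyte genes, whose levels in them are given only as a description.

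Adult IHG livers came from male offspring, 8 weeks old, of mothers with hyperglycemia in pregnancy (intrauterine hyperglycemia, IHG), and adult Ctrl livers from male offspring of the same age of control mothers. Each library pooled material of 3 animals, so a group is 1 library with no replicate, and no difference between IHG and Ctrl could be tested. Strain and the way maternal hyperglycemia was produced are not given in the sources used here. The study also has a fetal IHG and a fetal Ctrl library from late gestation, which were not used beyond the count above. Intervals below are exact 95% intervals for counting error only, and they leave out differences between animals, livers or preparations.

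Mature lymphocytes are mostly at rest, and a T or B cell that meets its antigen can enter the cell cycle and divide repeatedly. Dividing cells copy their DNA in S phase with the replication machinery and newly made histones, then separate the chromosomes in mitosis with the spindle, the kinetochores and the chromosomal passenger complex. B cells that divide and turn to antibody secretion are called plasmablasts. The liver holds many T cells, including CD8 T cells, natural killer T cells and gamma delta T cells, and plasma cells secreting immunoglobulin A are known in this organ.

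Several division genes share promoter elements: the cell cycle genes homology region (CHR) bound by the MuvB complex, the CCAAT box bound by NF-Y, and the E2F site used mainly by genes of DNA replication. The promoters of 4 genes of the rule are shown to display these elements: Cdk1 with all 3, Ube2c and Ccnb2 with CHR and CCAAT letters, and Pclaf with CCAAT and E2F letters. They run from 250 bases before to 50 bases after the annotated start, on the gene's own strand, from RefSeq in build GRCm38.p6. Capitals mark matches on either strand. The CHR was searched as TTTGAA, with TTCGAA as its second spelling, and the CCAAT box by the letters of its name. The E2F site was searched as TTTGGCGC, TTTCGCGC, TTTCCCGC and TTTGCCGC.
Cdk1, the kinase that starts mitosis, chr10:69352863-69353162, minus strand: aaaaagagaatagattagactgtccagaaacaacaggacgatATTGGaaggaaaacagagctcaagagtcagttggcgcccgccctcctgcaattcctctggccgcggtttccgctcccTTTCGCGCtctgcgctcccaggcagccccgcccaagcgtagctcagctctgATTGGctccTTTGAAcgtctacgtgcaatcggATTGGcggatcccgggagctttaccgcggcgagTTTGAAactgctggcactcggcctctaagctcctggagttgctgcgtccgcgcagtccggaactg
Ube2c, the ubiquitin-conjugating enzyme of the anaphase-promoting complex, chr2:164769679-164769978, plus strand: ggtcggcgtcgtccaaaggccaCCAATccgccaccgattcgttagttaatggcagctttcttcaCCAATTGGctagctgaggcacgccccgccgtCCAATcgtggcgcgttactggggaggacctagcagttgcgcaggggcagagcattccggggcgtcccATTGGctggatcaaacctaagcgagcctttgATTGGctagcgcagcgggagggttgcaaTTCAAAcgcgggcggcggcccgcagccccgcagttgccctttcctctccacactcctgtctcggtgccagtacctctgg
Ccnb2, a cyclin partner of Cdk1, chr9:70421505-70421804, minus strand: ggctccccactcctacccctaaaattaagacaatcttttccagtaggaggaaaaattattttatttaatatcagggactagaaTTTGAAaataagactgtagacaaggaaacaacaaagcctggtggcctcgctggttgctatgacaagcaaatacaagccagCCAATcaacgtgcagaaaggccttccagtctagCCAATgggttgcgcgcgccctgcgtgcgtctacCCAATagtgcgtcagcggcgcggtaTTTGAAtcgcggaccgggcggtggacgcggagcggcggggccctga
Pclaf, a PCNA-binding factor of S phase, chr9:65890073-65890372, plus strand: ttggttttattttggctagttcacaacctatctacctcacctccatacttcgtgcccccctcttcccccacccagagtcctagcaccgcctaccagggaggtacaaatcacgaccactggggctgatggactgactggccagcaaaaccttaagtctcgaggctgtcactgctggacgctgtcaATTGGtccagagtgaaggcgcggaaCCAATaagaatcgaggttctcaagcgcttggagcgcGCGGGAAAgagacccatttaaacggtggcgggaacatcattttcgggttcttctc

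In these windows Cdk1 held 2 CHR matches, 3 CCAAT matches and 1 E2F match, and Ccnb2 held 2 CHR and 3 CCAAT matches. Ube2c held 1 CHR match and 6 CCAAT matches, of which 2 overlap on opposite strands. Pclaf held no CHR match, 2 CCAAT matches and 1 E2F match. CHR letters were in 6 of the 8 rule promoters (75%), CCAAT letters in 7 (87.5%) and E2F letters in 2 (25%), and the Birc5 window held none of the 3. Among the mitotic genes listed for this report, 72 of 81 had a promoter in the table, and 63.9% held CHR letters, 66.7% CCAAT letters and 4.17% E2F letters. Among 57 matched genes of 68 for replication and nucleotide synthesis, 14.0% held CHR letters, 57.9% CCAAT letters and 28.1% E2F letters. Over all 27025 promoters of the table the shares were 19.4% for CHR, 37.9% for CCAAT and 2.32% for E2F. A match is only a run of letters, and binding was not measured.

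The adult IHG library holds 6851 barcodes and 19366065 UMIs and the adult Ctrl library 5245 barcodes and 17987173 UMIs, of which 6786 and 5195 barcodes were kept. Lymphocyte barcodes, those with a UMI of any of the 5 lymphocyte genes, numbered 5851 in IHG and 4138 in Ctrl. Cycling lymphocytes were the deeper cells. Their median was 9794.5 UMIs in IHG and 10158 in Ctrl, against 2238 and 2511.5 in the lymphocyte barcodes with no UMI of the 8 division genes, which serve below as other lymphocytes. The libraries share 8 barcodes, none of them a cycling lymphocyte. The shares below count cells in which these RNAs were seen, and a shallow cell can miss them.

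Cycling lymphocytes made up 1.13% of lymphocyte barcodes in IHG (66 of 5851, 0.873% to 1.43%), against 2.34% in Ctrl (97 of 4138, 1.90% to 2.85%). The log2 ratio was -1.06 (-1.53 to -0.59). Of all kept barcodes they were 0.973% in IHG and 1.87% in Ctrl, at a log2 ratio of -0.94 (-1.41 to -0.47). The division genes define the cells, so their own shares are given as a description and add no support. Mki67, the proliferation antigen, had a UMI in 1.81% of IHG and 3.02% of Ctrl lymphocyte barcodes. Birc5, survivin of the chromosomal passenger complex, had one in 1.16% and 2.44%, and Ccnb2 in 0.820% and 1.69%. When every barcode was thinned to 1000 UMIs, 18 IHG and 24 Ctrl cells still met the rule, and the lymphocyte share was 0.366% in IHG against 0.721% in Ctrl, a log2 ratio of -0.98 (-1.95 to -0.04). At that depth 16 IHG and 20 Ctrl cells of the Cd3 group met it, and the log2 ratio within that group, -0.34, had an interval from -1.38 to 0.68.

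The lymphocyte genes of the rule split the barcodes into 4 groups: Cd3 genes without Cd79a (the Cd3 group), Cd79a without Cd3 genes (the Cd79a group), Nkg7 alone, and both Cd3 and Cd79a. Most cycling lymphocytes were of the Cd3 group, 46 of 66 in IHG (69.7%) and 73 of 97 in Ctrl (75.3%). In that group 2.82% of IHG barcodes were cycling (46 of 1633, 2.07% to 3.74%), against 4.52% of Ctrl barcodes (73 of 1616, 3.56% to 5.65%), a log2 ratio of -0.68 (-1.25 to -0.13). In the Cd79a group 0.262% of IHG barcodes (9 of 3433) and 0.701% of Ctrl barcodes (13 of 1854) were cycling, a log2 ratio of -1.42 (-2.83 to -0.08). With Nkg7 alone the shares were 0.926% in IHG (5 of 540) and 0.891% in Ctrl (4 of 449), and the interval of their log2 ratio ran from -2.16 to 2.39. The mix of all lymphocyte barcodes also differed: the Cd3 group was 27.9% of them in IHG and 39.1% in Ctrl, and the Cd79a group 58.7% in IHG and 44.8% in Ctrl. The share over all lymphocyte barcodes therefore carries that difference as well, and the share within the Cd3 group does not.

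**Figure D1:**
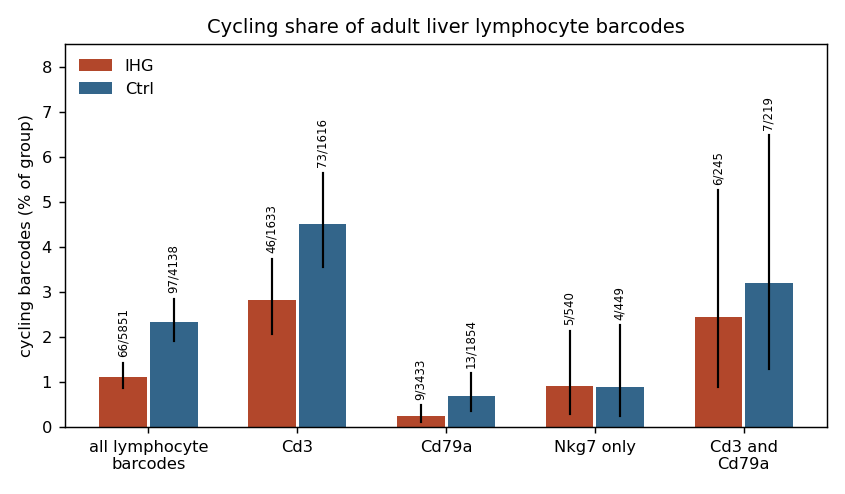
Share of lymphocyte barcodes that met the cycling rule, in percent, over all lymphocyte barcodes and within each lineage group, for the IHG and the Ctrl library. Bars are shares and lines exact 95% intervals for counting error. The IHG bar is the lower one over all barcodes (1.13% against 2.34%), in the Cd3 group (2.82% against 4.52%) and in the Cd79a group (0.262% against 0.701%), while the intervals of the smallest groups are wide.

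Of the Ctrl cells, 9 (9.28%) held at least 20 UMIs over genes of neutrophils, myeloid cells, mast cells and basophils, or cholangiocytes, against 0 of the 66 IHG cells. The highest was a Ctrl cell of the Cd79a group with 10038 neutrophil UMIs, 94 myeloid UMIs and 1 UMI over the 5 lymphocyte genes. A second Cd79a cell held 164 neutrophil UMIs, 2 held 114 and 167 myeloid UMIs, and another held 444 cholangiocyte UMIs. In the Cd3 group 1 Ctrl cell held 195 mast cell and basophil UMIs, and 2 held 73 and 61 myeloid UMIs. A Ctrl cell with both Cd3 and Cd79a held 108 cholangiocyte UMIs. Whether these are single cells or droplets with more than 1 cell was not tested. The name cycling lymphocyte is therefore in doubt for these Ctrl cells, and results that rest on these 9 are given with and without them. Without them the lymphocyte share was 2.13% in Ctrl and the log2 ratio -0.91 (-1.40 to -0.44). Within the Cd3 group the ratio was -0.62 (-1.19 to -0.06), and within the Cd79a group -0.72, with an interval from -2.26 to 0.86 that includes equal shares.

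The Cd3 group held T cell receptor RNA, which the rule did not use. Trac, Trbc1 or Trbc2, the constant parts of the alpha and beta chains, had a UMI in 46 of 46 IHG cells and 72 of 73 Ctrl cells, with medians of 22 and 24 UMIs per cell. The cells with both Cd3 and Cd79a resembled the Cd3 group in this measure: 5 of 6 IHG and 7 of 7 Ctrl cells held at least 10 UMIs of these genes. These Ctrl cells include the cell with 108 cholangiocyte UMIs. Cells with Nkg7 alone were few, and the natural killer receptor genes Ncr1 or Klrb1c were seen in 2 of 5 IHG and 2 of 4 Ctrl cells.

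Cells with plasma cell RNA made up most of the cycling Cd79a group in IHG. In Ctrl their part differed with and without the cells that held RNA of other cell types. Jchain, which joins polymeric antibodies, and Mzb1, a chaperone of antibody assembly, together reached at least 100 UMIs in 8 of 9 IHG cells and 5 of 13 Ctrl cells. Without the Ctrl cells that held RNA of other cell types, it was 5 of 8 Ctrl cells. These 8 IHG cells held 170 to 938 such UMIs (median 436) and the 5 Ctrl cells 250 to 877 (median 442), so the libraries overlap. Igha, the heavy chain of immunoglobulin A, ran from 42 to 2183 UMIs in the IHG cells (median 680.5) and from 1 to 1730 in the Ctrl cells (median 1199). Each library had 1 cell with more Ighg than Igha: an IHG cell with 453 Ighg and 42 Igha UMIs, and a Ctrl cell with 628 Ighg and 1 Igha UMIs. Ighm, the heavy chain of naive B cells, reached at most 11 UMIs in these IHG cells and 0 in the Ctrl cells, although it was seen in 87.4% of IHG and 89.1% of Ctrl non-cycling barcodes of the Cd79a group.

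The other Cd79a cells differed between the libraries. The single remaining IHG cell had 0 UMIs of Jchain and Mzb1, 24 of Nkg7 and 11 of Ncr1 and Klrb1c. Of the 8 remaining Ctrl cells, 5 were among those with RNA of other cell types. A further Ctrl cell held 289 Igha UMIs with 26 of Jchain and Mzb1, another held 32 Ighg UMIs with 16 of Jchain and Mzb1, and the last held 9 of Nkg7.

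Plasma cell RNA and division RNA went together in the Cd79a group of both libraries. Among barcodes of that group with at least 100 Jchain and Mzb1 UMIs, 8 of 19 were cycling in IHG (42.1%, 20.3% to 66.5%) and 5 of 21 in Ctrl (23.8%, 8.22% to 47.2%). Below that level the shares were 0.0293% in IHG (1 of 3414) and 0.436% in Ctrl (8 of 1833). Of these 8 Ctrl cells, 5 were among those with RNA of other cell types, so the library difference below the level rests largely on them. The 2 sides differ in depth, since the median barcode with much Jchain and Mzb1 held 19025 UMIs in IHG and 13658 in Ctrl, against 2041 and 2273 below the level, and the part of depth in the contrast was not tested. The level of 100 was chosen after the values were seen.

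**Figure D2:**
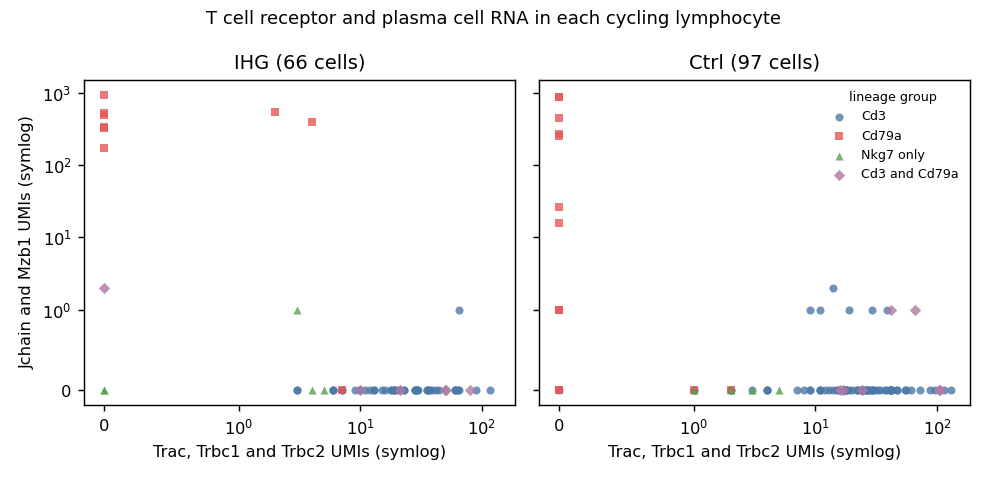
UMIs of Trac, Trbc1 and Trbc2 (horizontal) against UMIs of Jchain and Mzb1 (vertical) in each cycling lymphocyte, IHG left and Ctrl right, with 1 point per cell marked by lineage group. Both axes are logarithmic with a linear stretch near 0. Most cells lie near an axis: T cell receptor RNA in the Cd3 group, and Jchain and Mzb1 RNA of at least 100 UMIs in 8 IHG and 5 Ctrl cells of the Cd79a group.

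Within the cycling Cd3 group, RNA of the CD8 coreceptor and of the delta chain gene Trdc was lower in IHG. Cd8a or Cd8b1, the CD8 coreceptor, had a UMI in 13 of 46 IHG cells (28.3%, 16.0% to 43.5%), against 33 of 73 Ctrl cells (45.2%, 33.5% to 57.3%), with 73 and 290 UMIs in all. At most 14 UMIs were found in an IHG cell and 35 in a Ctrl cell. Among the other Cd3 barcodes the order was the opposite one, 18.4% in IHG and 14.8% in Ctrl. Free RNA gave a share of 0.425% in IHG and 0.228% in Ctrl, measured in the other Cd79a barcodes, whose median depth was 2038 and 2267.5 UMIs, against 9120.5 and 10058 in the cycling Cd3 cells. With each cycling cell thinned to 4000 UMIs the shares were 20.5% in IHG (8 of 39, 9.30% to 36.5%) and 38.2% in Ctrl (26 of 68, 26.7% to 50.8%), and the intervals overlap. Other Cd3 barcodes at 4000 UMIs gave 29.8% in IHG and 22.9% in Ctrl. Cycling cells below 4000 UMIs, 7 in IHG and 5 in Ctrl, were left out there.

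Over all cycling lymphocytes Cd8b1 had 44 UMIs in IHG and 183 in Ctrl, at 53.4 and 164 CPM (UMIs of a gene over all UMIs of the same cells, on the usual CPM scale). The log2 ratio was -1.60 (-2.13 to -1.14), and -1.25 in the Cd3 group. In other lymphocytes it was 0.33, and in the other Cd3 barcodes 0.63. Values over other lymphocytes also carry the mix of lineages. Cd8a had 30 UMIs in IHG and 108 in Ctrl, a log2 ratio of -1.39 (-2.04 to -0.81). In other lymphocytes it was at 0.15, and in the other Cd3 barcodes at 0.43.

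Trdc, the constant part of the delta chain, had the same order with fewer cells. In the Cd3 group 2 of 46 IHG cells held it, with 4 and 11 UMIs, against 14 of 73 Ctrl cells with 1 to 45 UMIs, or 4.35% (0.531% to 14.8%) and 19.2% (10.9% to 30.1%). At 4000 UMIs per cell the shares were 5.13% and 16.2%, and in the other Cd3 barcodes at that depth 5.88% and 6.12%. Unthinned, the other Cd3 barcodes gave 7.21% in IHG and 8.47% in Ctrl. Over all cycling lymphocytes Trdc had 15 UMIs in IHG and 161 in Ctrl, a log2 ratio of -2.94 (-3.85 to -2.22), and 25.6% of all its UMIs came from 1 Ctrl cell. Tcrg-C1, a gamma chain constant gene, was at 14 UMIs in IHG and 50 in Ctrl, a log2 ratio of -1.36, and it was lower in IHG among other lymphocytes too, at -1.21. Its near-identical family members share sequence, so reads may be split among them. With Tcrg-C2 and Tcrg-C4 added to Trdc and Tcrg-C1, the library shares in the cycling Cd3 group lay closer. Any of these genes had a UMI in 12 of 46 IHG cells (26.1%, 14.3% to 41.1%) and 25 of 73 Ctrl cells (34.2%, 23.5% to 46.3%). These intervals overlap, and the summed level was 134 CPM in IHG and 336 CPM in Ctrl.

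Il17a, the cytokine made by a subset of gamma delta T cells and by T helper 17 cells, was in 1 IHG cell with 55 UMIs and in 6 Ctrl cells with 139 UMIs, of which 1 cell held 66. Trdc was also seen in that IHG cell and in 4 of the 6 Ctrl cells. Cd163l1, a scavenger receptor of gamma delta T cells, had 6 UMIs in 1 IHG cell and 30 UMIs in 5 Ctrl cells. These few cells set the values in the cycling lymphocytes. Among the other Cd3 barcodes Il17a was seen in 21 of 1497 in IHG and 34 of 1428 in Ctrl. In other lymphocytes Il17a was at 11.3 CPM in IHG and 23.5 CPM in Ctrl, and Cd163l1 at 2.37 and 4.87 CPM. The lower IHG values of both genes were thus not confined to cycling cells.

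Cd4, the CD4 coreceptor, was sparse, at no more than 4 UMIs in a cell of the Cd3 group. It had a UMI in 11 of 46 IHG cells (23.9%) and 9 of 73 Ctrl cells (12.3%) of the Cd3 group, and at 4000 UMIs per cell in 10.3% and 8.82%. The cycling Cd79a group, which should lack it, held Cd4 in 2 of 9 IHG cells (22.2%) and 1 of 13 Ctrl cells (7.69%) at median depths of 20301 and 19416 UMIs, so the Cd4 shares of the Cd3 group are not read as a difference. Foxp3, the transcription factor of regulatory T cells, was in 4 of 46 IHG cells with 8 UMIs and in 0 of 73 Ctrl cells, where the upper limit of the exact interval is 4.93%. Among the other Cd3 barcodes Foxp3 was in 0.802% in IHG and 0.280% in Ctrl. It was named after its values were seen. Sorted into exclusive classes by these genes, 12 IHG and 27 Ctrl cells had Cd8a or Cd8b1 alone, 1 and 8 had Trdc alone, 11 and 9 had Cd4 alone, 1 and 6 had more than 1 of the 3, and 21 and 23 had none.

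Il4, the type 2 cytokine that natural killer T cells can release quickly, was higher in IHG, with 47 UMIs in 8 cells against 22 UMIs in 8 Ctrl cells. Its log2 ratio was 1.52 (0.78 to 2.34), with -0.63 in other lymphocytes and -0.32 in the other Cd3 barcodes. The cells with a UMI were 12.1% of the 66 IHG and 8.25% of the 97 Ctrl cycling lymphocytes, and 18.8% of the UMIs lay in 1 Ctrl cell. Within the Cd3 group, Il4 was found with Cd4 in 4 of 7 IHG cells and 2 of 7 Ctrl cells. The natural killer receptors Ncr1 or Klrb1c were in 9 of 46 IHG cells (19.6%) and 4 of 73 Ctrl cells (5.48%), against 16.7% and 20.1% of the other Cd3 barcodes, whose median depth was 2940 and 2906.5 UMIs.

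**Figure D3:**
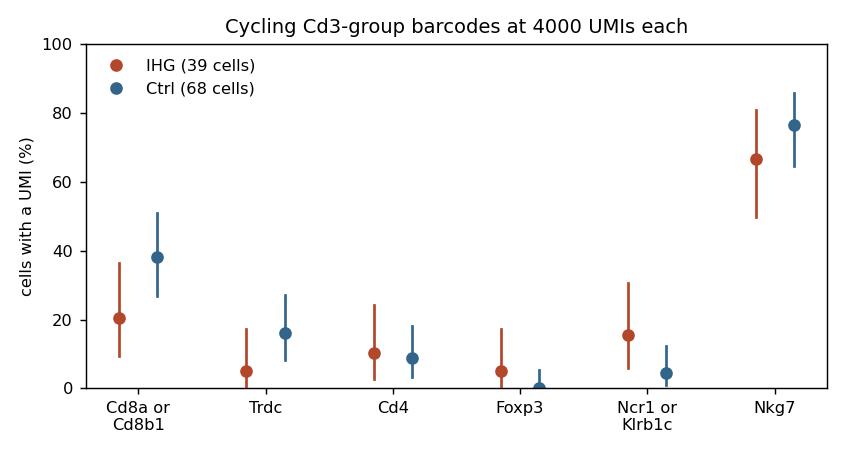
Percent of cycling Cd3-group cells with at least 1 UMI of each subset gene or gene pair after thinning to 4000 UMIs, for 39 IHG and 68 Ctrl cells. Points are shares and lines exact 95% intervals for counting error. The IHG point lies below the Ctrl point for Cd8a or Cd8b1 (20.5% against 38.2%) and Trdc (5.13% against 16.2%), and above it for Ncr1 or Klrb1c (15.4% against 4.41%), with overlapping intervals. Nkg7 is a gene of the rule and is plotted only as a description.

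A list of 22 cytotoxic effector and cytokine genes, which holds Il4 and Il17a too, had 15 measured. Of these, 1 was lower by at least 2-fold in IHG and 2 higher, against 4.31% and 2.38% of all genes tested. The median log2 ratio was -0.41 over all cycling lymphocytes (4 of 15 above 0) and -0.21 in the Cd3 group (6 of 15 above 0), beside -0.01 and 0.03 over all genes tested. In other lymphocytes the list median was -0.20. Ccl5, a chemokine stored by effector T cells, had 1470 UMIs in IHG and 4005 in Ctrl, at 1785 and 3586 CPM. Its log2 ratio was -1.01 (-1.09 to -0.92), -0.74 in the Cd3 group, -0.02 in other lymphocytes and 0.26 in the other Cd3 barcodes. Gzmb, granzyme B, was level, at 290 CPM in IHG and 289 CPM in Ctrl, and Gzma, granzyme A, was at 1096 and 1205 CPM. The Cd3 group differed, without the Ctrl cells that held RNA of other cell types. There Gzma had 467 UMIs in IHG and 1117 in Ctrl, a log2 ratio of -0.53 (-0.69 to -0.37), and Gzmb was at 0.28. In the other Cd3 barcodes Gzma was at 0.43 and Gzmb at -0.01. The share of cells with Gzmb had the opposite order to its ratio of 0.28. Over the whole cycling Cd3 group it was 32.6% in IHG (15 of 46) and 46.6% in Ctrl (34 of 73). At 4000 UMIs per cell it was 28.2% and 41.2%, with overlapping intervals. Gzmk, granzyme K, had 41 UMIs in IHG and 25 in Ctrl, of which 25.8% were from 1 IHG cell.

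Among single genes of activation and homing, 3 picked after their values were seen were lower in IHG, while the lists they belong to lay nearer to 0. Tnfrsf9, the costimulatory receptor 4-1BB, had 9 UMIs in 5 IHG cells and 56 UMIs in 20 Ctrl cells, a log2 ratio of -2.13 (-3.40 to -1.17), and 0.09 in other lymphocytes. Icos, another costimulatory receptor, had 58 UMIs in IHG and 179 in Ctrl, at -1.18 (-1.64 to -0.75), with -0.73 in other lymphocytes. Ccr7, the receptor that guides cells to lymph nodes, had 40 UMIs in IHG and 134 in Ctrl, at -1.29 (-1.85 to -0.79), with 0.35 in other lymphocytes. In the other Cd3 barcodes, without the mix of lineages, the log2 ratios were 0.86 for Tnfrsf9, -0.40 for Icos and 0.04 for Ccr7. The whole activation and costimulation list of 22, with 20 measured, had a median of -0.16 with 4 genes above 0, and -0.09 with 8 of 20 above 0 in the Cd3 group. The homing list, with 19 of 23 measured, had a median of -0.09 with 7 above 0, and -0.03 with 8 of 18 above 0 in the Cd3 group.

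The 8 division genes, whose levels the rule conditions, had log2 ratios between -0.16 for Birc5 and 0.41 for Cdk1, and 7 of 8 were above 0. Mki67 was at 317 CPM in IHG and 291 CPM in Ctrl and Top2a, the topoisomerase of mitotic chromosomes, at 353 and 329 CPM. Ube2c was at 497 and 445 CPM, Pclaf at 634 and 571 CPM, and Birc5 at 400 and 446 CPM. Cdk1 was at 123 and 92.2 CPM, Cdca8, of the chromosomal passenger complex, at 203 and 163 CPM, and Ccnb2 at 175 and 152 CPM. All 8 genes were seen in 24 of 66 IHG cells (36.4%) and 27 of 97 Ctrl cells (27.8%). At the threshold, exactly 3 were seen in 5 IHG and 12 Ctrl cells, whose median depth was 7439 and 8114.5 UMIs. Just outside it, exactly 2 were seen in 9 IHG and 24 Ctrl lymphocyte barcodes with medians of 3235 and 4627.5 UMIs. A further 7 IHG and 8 Ctrl barcodes held at least 3 division genes and no UMI of the 5 lymphocyte genes.

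Lists of the remaining cycle machinery had medians near that of all genes, -0.01. Kinetochore and passenger genes had a median log2 ratio of 0.06 (15 of 29 above 0), spindle and kinesin genes 0.11 (20 of 30), replication licensing genes 0.11 (10 of 17), replication fork genes -0.05 (12 of 25) and condensin and cohesin genes -0.04 (5 of 17). Examples are Tpx2, a spindle assembly factor, at 152 CPM in IHG and 112 CPM in Ctrl, Cenpf, a kinetochore protein, at 142 and 111 CPM, Mcm6, a subunit of the replicative helicase, at 138 and 124 CPM, and Smc2, a condensin subunit, at 188 and 177 CPM. Pcna, the sliding clamp of replication, was at 307 and 374 CPM, and Tyms, thymidylate synthase, at 123 and 160 CPM. Cdc25a, a phosphatase that activates cyclin-dependent kinases, had 11 UMIs in IHG and 33 in Ctrl, and E2f8, a repressor of the E2F family, 9 and 30 UMIs, both with log2 ratios below -1 (-1.10 and -1.24) and intervals that come near 0.

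The balance of mitotic to replication RNA was alike. Summed over all cycling lymphocytes, mitotic-list UMIs over replication-list UMIs gave 3.35 in IHG (7503 over 2242) and 3.32 in Ctrl (10033 over 3020), a log2 difference of 0.01 (-0.08 to 0.10). At 1000 UMIs per cell, 58 of 66 IHG and 89 of 97 Ctrl cells had more mitotic than replication UMIs. When the rule was instead applied again to the thinned counts, the 18 IHG and 24 Ctrl cells left held 218 over 54 and 325 over 50 UMIs, a log2 difference of -0.69 (-1.29 to -0.08). The rule asks mainly for genes of G2 and mitosis, so this says nothing of the share of cells in S phase. Cells varied far more than libraries: the mitotic list ran from 8.86 to 248 UMIs per 10000 in IHG cells and from 13.8 to 257 in Ctrl cells, and the replication list from 0 to 66.3 and from 0 to 69.2. The median mitotic level was 106 per 10000 in IHG and 98.9 in Ctrl for the Cd3 group, and 76.8 and 70.2 for the Cd79a group.

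**Figure D4:**
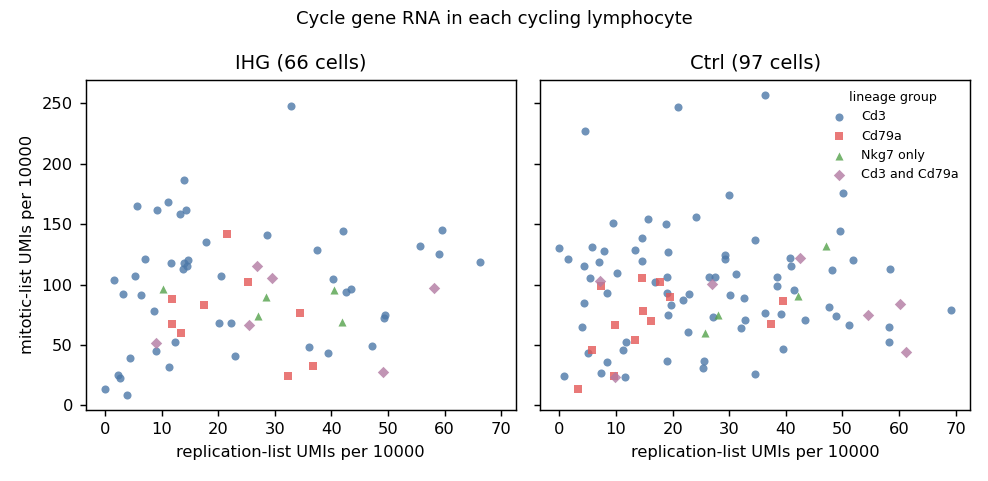
Replication-list UMIs per 10000 (horizontal) against mitotic-list UMIs per 10000 (vertical) in each cycling lymphocyte, IHG left and Ctrl right, with 1 point per cell marked by lineage group. The clouds of both libraries cover the same range, up to 248 mitotic UMIs per 10000 in IHG and 257 in Ctrl, and replication UMIs reach 66.3 and 69.2.

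Replication-dependent histone genes stood higher in the IHG cells. These genes supply histones for new DNA, and most of their mRNA ends in a stem-loop without a poly(A) tail, so a method that primes on poly(A) sees only part of it. Their summed level was 10740 CPM in IHG and 7155 CPM in Ctrl cycling lymphocytes. Of 28 genes measured, 25 were above 0, with a median log2 ratio of 0.46, and 2 were higher by at least 2-fold, against 2.38% of all 6584 genes tested. In the Cd3 group the median was 0.50 and again 25 of 28 were above 0. Other lymphocytes had the same order to a smaller degree, with 1575 CPM in IHG, 1383 CPM in Ctrl and a median of 0.24 (21 of 26 above 0).

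Hist1h2ap, an H2A gene on chromosome 13 (21833026 to 21833507 in GRCm38), had the highest level of the named members, with 2995 UMIs in 58 IHG cells and 1826 UMIs in 85 Ctrl cells, at 3638 and 1635 CPM. The log2 ratio was 1.15 (1.07 to 1.24), 1.18 in the Cd3 group and 1.06 without the 9 Ctrl cells named above, and no cell gave more than 4.75% of the UMIs. In other lymphocytes Hist1h2ap was at 123 CPM in IHG and 43.5 CPM in Ctrl, a log2 ratio of 1.49, so its difference was not confined to cycling cells. Hist1h3e, an H3 gene, was at 1.08, Hist1h3b at 0.85, Hist1h2ae at 0.63, Hist1h1e at 0.42 and Hist1h1b, a linker histone, at 0.38. Hist1h2bc, an H2B gene that also makes a polyadenylated transcript, was at 935 CPM in IHG and 1141 CPM in Ctrl, a log2 ratio of -0.29. Members of these histone families are near-identical, and reads may be split or lost among them.

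Cholesterol synthesis genes went the other way. Of 12 measured of 17, 1 was above 0, the median log2 ratio was -0.78, and 2 were lower by at least 2-fold, against 4.31% of all genes tested. Their sum was 338 CPM in IHG and 523 CPM in Ctrl. Hmgcs1, which makes the precursor of mevalonate, had 13 UMIs in 12 IHG cells and 50 UMIs in 32 Ctrl cells, a log2 ratio of -1.46 (-2.51 to -0.60). Msmo1, a sterol oxidase, had 15 and 51 UMIs, at -1.29. Insig1, the sterol sensor of the endoplasmic reticulum, had 27 and 71 UMIs, at -0.94, Idi1, an isomerase of the pathway, 18 and 44 UMIs, at -0.83, and Cyp51, a sterol demethylase, 38 and 86 UMIs, at -0.73. The list median was -0.58 in the Cd3 group (2 of 9 above 0) and -0.57 in other lymphocytes (1 of 17 above 0), so this order too was shared with cells outside the cycle.

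Energy and protein turnover genes differed little. Medians were 0.06 for glycolysis (10 of 16 above 0), 0.05 for nuclear genes of the respiratory chain (21 of 34) and 0.13 for the proteasome (15 of 21). Ldha, lactate dehydrogenase A, was at 537 CPM in IHG and 374 CPM in Ctrl, a log2 ratio of 0.52. Heat shock genes had a median of 0.25 (9 of 11 above 0) and 0.31 in the Cd3 group, with the cochaperone Dnajb1 at 266 and 157 CPM, the chaperone Hsp90aa1 at 1212 and 938 CPM and the mitochondrial chaperone Hspd1 at 311 and 210 CPM. In other lymphocytes the heat shock median was 0.01.

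The direction of the immediate-early genes, which respond first to stimulation and also to tissue handling, differed with and without the 9 Ctrl cells that held RNA of other cell types. Over all cycling lymphocytes the median was -0.34 with 2 of 20 above 0, in the Cd3 group 0.13 with 13 of 20 above 0, and without those cells 0.07 with 12 of 20 above 0. Fos was at -0.39 over all, 0.26 in the Cd3 group and 0.42 without them, and Jun at -0.28, 0.22 and 0.64. Antigen presentation genes of MHC class II were closer to equal without those cells but stayed below 0 in the Cd3 group. There Cd74, the invariant chain, had 65 UMIs in IHG and 767 in Ctrl, a log2 ratio of -2.76, and -0.74 without those cells. H2-Aa had 11 and 217 UMIs, at -3.45, and -1.22 without them, and H2-Ab1 was at -2.66 and -0.17. The other Cd3 barcodes had log2 ratios of -1.30 for Cd74, -1.35 for H2-Aa and -1.35 for H2-Ab1. The lower IHG values were thus not confined to cycling cells. Over all cycling lymphocytes without those cells, Cd74 (0.17) and H2-Ab1 (0.33) lay above 0 and H2-Aa (-0.10) and H2-Eb1 (-0.38) below it.

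**Figure D5:**
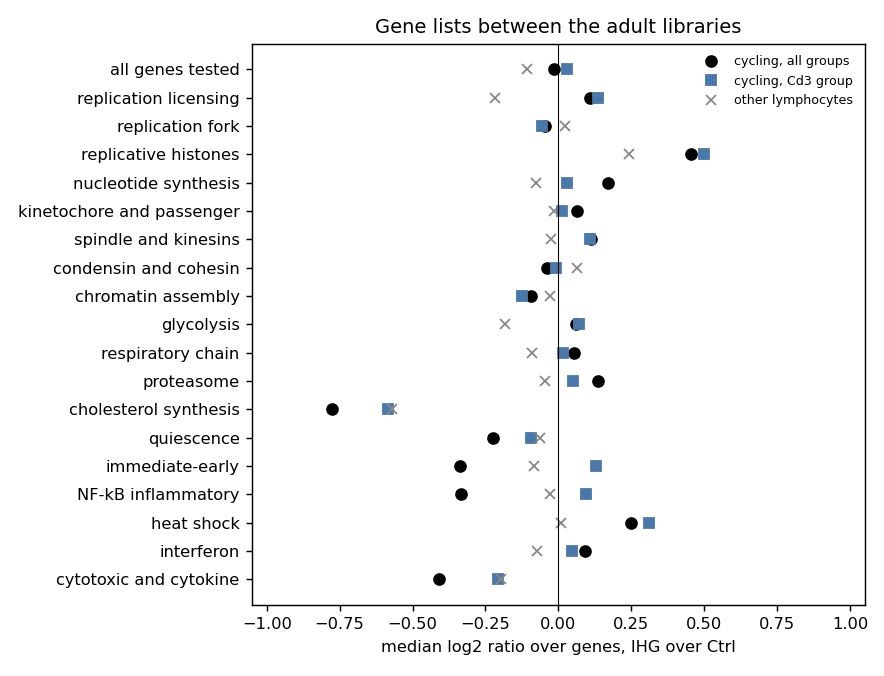
Median log2 ratio, IHG over Ctrl, over the measured genes of each list (rows) in all cycling lymphocytes (circles), cycling Cd3-group cells (squares) and other lymphocytes (crosses). A value above 0 is higher in IHG. Replicative histones lie at 0.46, 0.50 and 0.24 and cholesterol synthesis at -0.78, -0.58 and -0.57, while the immediate-early list lies at -0.34 over all cycling cells and at 0.13 in the Cd3 group.

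Over all genes tested in cycling lymphocytes, 157 of 6584 were higher by at least 2-fold in IHG (2.38%) and 284 lower (4.31%). Among Cd3-group cells 163 of 5192 were higher (3.14%) and 169 lower (3.26%). The extremes of the ranking came from single cells. Camp and Ngp, antimicrobial granule genes of immature neutrophils, had 1312 and 1028 UMIs in a single Ctrl cell and 0 in IHG. S100a8 and S100a9, the calprotectin genes, had 2 and 3 UMIs in IHG and 3374 and 4284 in Ctrl, with 99.7% and 99.4% from that cell. Prss34 and Mcpt8, proteases of basophils, had 114 and 78 UMIs in another Ctrl cell and 0 in IHG.

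At the upper end Rep15 had 75 UMIs in 3 IHG cells and 0 in Ctrl, with 81.3% in 1 cell, S100a2 had 56 UMIs in 1 IHG cell, and Wdcp had 129 and 8 UMIs, with 81.0% in 1 IHG cell. Genes high in IHG over more cells were Gm42047, a predicted gene, with 53 UMIs in 20 IHG cells and 24 UMIs in 13 Ctrl cells (log2 ratio 1.57), and Chchd10, a mitochondrial protein gene, with 92 UMIs in 23 IHG cells and 46 in 27 Ctrl cells (1.43). In other lymphocytes Gm42047 was at 1.07 and Chchd10 at 0.13. Ckb, the brain-type creatine kinase, was at 56 and 35 UMIs, 1.11 over all and 1.77 in the Cd3 group, against -0.79 in other lymphocytes. Tnfrsf17, the survival receptor of plasma cells, had 75 UMIs in 8 IHG cells and 29 UMIs in 5 Ctrl cells, a log2 ratio of 1.80 (1.17 to 2.48). In other lymphocytes it went the opposite way, with 28 and 91 UMIs and a log2 ratio of -2.03, and the 8 and 5 cells equal in number those with at least 100 Jchain and Mzb1 UMIs.

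Immunoglobulin genes differed by the isotype of a few cells. Ighg2b had 568 UMIs in 5 IHG cells and 26 UMIs in 1 Ctrl cell, with 76.3% in 1 IHG cell. Ighg2c was at 0 in IHG and had 696 UMIs in 3 Ctrl cells, with 89.2% in 1 of them. Among other lymphocytes Ighg2b was at 5.01 CPM in IHG and 0.797 CPM in Ctrl, and Ighg2c at 0.139 and 30.8 CPM. Igha was at 7526 CPM in IHG and 4495 CPM in Ctrl cycling lymphocytes, and in other lymphocytes at 598 and 1012 CPM.

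Set beside other lymphocytes of the same library, cycling cells showed the division program throughout, which the choice of cells built in and which is given only as a description. Genes higher by at least 2-fold in both libraries made up 19.4% of 4555 tested, and genes lower in both 9.62%. In the Cd3 group alone these were 19.8% and 5.59% of 3128. Each library by itself, counting the genes lower in both, had 7.96% lower in IHG and 9.59% lower in Ctrl. Medians of the log2 ratio, cycling over other, were 4.94 in IHG and 4.92 in Ctrl for kinetochore and passenger genes, 4.59 and 4.71 for spindle genes, 3.16 and 3.13 for licensing genes, 2.06 and 2.12 for fork genes and 2.92 and 2.54 for histones. Over all genes they were 0.20 and 0.15. Hist1h3b, an H3 gene, had 107 CPM in cycling and 0.0696 CPM in other IHG lymphocytes, and 59.1 and 0.0885 CPM in Ctrl. Stmn1, a microtubule destabiliser of dividing cells, had 1140 and 50.3 CPM in IHG, and 1245 and 54.1 CPM in Ctrl. Tyms had 123 and 2.44 CPM in IHG, and 160 and 2.48 CPM in Ctrl.

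Genes of resting lymphocytes were at lower CPM in the cycling cells. The quiescence list had a median log2 ratio of -1.27 in IHG and -0.91 in Ctrl, with 8 of 22 genes lower by at least 2-fold in both. Klf2, which keeps naive T cells at rest, was at 585 CPM in cycling and 1704 CPM in other IHG lymphocytes, and at 756 and 1406 CPM in Ctrl. Btg1, an antiproliferative gene, was at 532 and 2504 CPM in IHG, and at 774 and 2624 CPM in Ctrl, and Foxp1, a factor of naive T cells, at 89.9 and 556 CPM in IHG, and at 94.0 and 519 CPM in Ctrl. These contrasts also carry the mix of lineages, since 3293 of the 5529 other IHG lymphocytes were of the Cd79a group. In the other Cd3 barcodes Foxp1 was at 228 CPM in IHG and 231 CPM in Ctrl. Within the Cd3 group the list median was -1.37 in IHG and -1.23 in Ctrl. There 12 of 19 genes were lower by at least 2-fold in both, against 5.59% of all genes tested. Counted per cell, the quiescence list was higher in cycling cells, with 40.1 UMIs against 24.3 in IHG, and 47.0 against 28.2 in Ctrl, beside median totals of 9794.5 and 2238 UMIs in IHG, and 10158 and 2511.5 in Ctrl. The chemokine Ccl4 was at 430 CPM in cycling and 2162 CPM in other IHG lymphocytes, and at 407 and 2160 CPM in Ctrl. Without the 9 Ctrl cells with RNA of other cell types, its UMIs were 354 in IHG and 266 in Ctrl cycling cells, against 354 and 454 with them, and its log2 ratio of IHG over Ctrl was 0.67, against 0.08 with them.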

How the data were processed

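Single-cell RNA was measured with the 10x 3′ method, and the deposited values are raw UMI counts per gene and barcode, which the authors produced with Cell Ranger (version 5.0.0 in the file headers). The submitters' processing notes also name build mm10 and Seurat, without a step for it. Per the labels' protocols, livers were digested with collagenases, DNase I and hyaluronidase and red cells were lysed, which can change which cells and which early response genes are seen.

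The members and gene lists were chosen with earlier results of these data known. Counts were summed over the cells of a group and scaled to CPM. Log2 ratios used a pseudocount of 0.5 and genes with at least 20 UMIs, and "called" meant 2-fold or more, since 1 library per group allows no test. Intervals are exact (Clopper-Pearson for shares, conditional Poisson for ratios). Thinning drew 1000 or 4000 UMIs per cell, and the 4000 level and the limit of 100 Jchain and Mzb1 UMIs were chosen after the data were seen. Doublets were scored with Scrublet, whose own threshold marked 1 IHG and 0 Ctrl barcodes and so did not work. An alternative left out the highest scores, which include 0 IHG and 4 Ctrl cycling cells.

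Named genes were those of the rule, up to 4 per list, and the 10 highest and 10 lowest in each ranking with at least 50 UMIs. Foxp3, Il17a, Cd163l1, Ighg2b, Ighg2c, Chchd10, and any list member beyond 4, were named after their values were seen. Gene coordinates are from GENCODE vM21, and promoters from RefSeq. The code was tested on simulated data. Computation ran in Python 3.11.15 with scanpy 1.11.5, pandas 2.3.3, scipy 1.17.1 and numpy 2.4.6. One marker result is not reported here.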

Additional observations from a re-analysis of the deposited data

How the results depend on the processing

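Across the alternatives run (stricter and looser cycling rules, gene and mitochondrial limits, Scrublet scores, depth, and leaving out the Ctrl cells with RNA of other cell types), the log2 ratio of the cycling share ran from -1.08 to -0.80 over kept barcodes, from -1.19 to -0.91 over lymphocyte barcodes and from -0.79 to -0.34 in the Cd3 group. In the Cd79a group it ran from -1.47 to -0.72, and thinning gave no value there because no IHG cell was left. With Nkg7 alone it ran from -0.83 to 0.47. Applying the rule to counts thinned to 1000 UMIs moved the mitotic to replication difference to -0.69. Genes higher by at least 2-fold in IHG numbered 43 at a minimum of 50 UMIs, 1753 at a minimum of 1 and 304 with the mean of per-cell CPM, against 157 as reported. Genes lower numbered 85, 2737, 169 in the Cd3 group and 181 without the Ctrl cells with RNA of other cell types, against 284. Genes lower than in other lymphocytes in both libraries numbered 175 in the Cd3 group. Directions reversed for Fos (0.26) and Jun (0.22) in the Cd3 group, for Jun (0.24) without the highest Scrublet scores, and, without the Ctrl cells with RNA of other cell types, for Cd74 (0.17), H2-Ab1 (0.33), Fos (0.42), Jun (0.64) and Ifitm3 (0.98). The cause of these changes was not tested. No paired analysis was possible because each group is 1 library, and no replicate could be left out. Groups of under 10 cells are limited by their counts.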
